A study of Mus musculus with 16 samples.

Results

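Mouse chromosome 5 was read by 1599 array probes, and 19 of them lay past an adjusted p of 0.05 for the difference between Lcn2-/- and wild type (WT) liver, in the same direction, both without and with CCl4. These are 1.19% of the members, beside 0.221% of all probes tested. The 1599 were chosen by position and signal from 3265 chromosome 5 probes on the array, out of 55681 probes in all and 33022 tested. A probe is a designed stretch of 60 bases that captures labelled RNA from the transcript it matches. Of the 3265, 962 probes whose name begins A_30_P and 17 probes for the Oas genes and Gpat3 (older name Agpat9) were left out, and 687 of the 2286 that remained were well above background on fewer than 3 of 16 arrays or had no usable spot. The members carried 1273 distinct gene names, and 1313 members were well above background on all 16 arrays. The members were then compared between genotypes, so the genotype differences below chose what is described and are given as values with no test.

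The arrays came from the livers of male BALB/c mice, either WT or Lcn2-/-, that were 6 to 8 weeks old when treatment began. Mice received CCl4 at 0.5 ml/kg, injected 2 times per week for 4 weeks, or the corn oil vehicle, and livers were collected 48 h after the last dose. Controls numbered 4 WT and 3 Lcn2-/- arrays, and CCl4 mice 5 WT and 4 Lcn2-/- arrays. The study asked what the loss of Lcn2 does to liver fibrosis. According to the methods, the Lcn2-/- line was made on a mixed 129/Ola and C57BL/6 background and then backcrossed to BALB/c.

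Lcn2 encodes lipocalin 2, a secreted protein that binds bacterial siderophores and so withholds iron, and its gene lies on chromosome 2. CCl4 is converted to a radical by Cyp2e1 in hepatocytes, kills cells around the central vein and, given repeatedly, drives stellate cells to deposit scar matrix. Chromosome 5 carries several gene clusters of importance to liver, among them the albumin family, the CXC chemokines, the UGT2 conjugation enzymes and the CYP3A oxidases. Bulk RNA was measured, so fewer cells of a type and less RNA per cell cannot be told apart.

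The sequences that the results turn on are shown first, as 30-base stretches of the probes copied from the deposited array files, 5′ to 3′, with the position of the whole probe on the mm9 build. They are the 3 called probes with the largest differences in controls, a second Thoc2l probe that did not share its neighbour's difference, the Atp10d probe, the 2 probes with a large difference and no established gene symbol, and the 2 Phkg1 probes, which differ by 1 base. Capitals mark that base, and the other stretches hold none.
Zfp33b, chr5:105011519-105011578, plus strand: tgttaaagccttttcgagtcccagttatct
Thoc2l, chr5:104980887-104980946, plus strand: tattaagtgttactttggtatgcagtgaaa
Thoc2l, other probe, chr5:104949957-104950016, plus strand: acaggtgaatatacacatatcaggaatatc
ENSMUST00000026614, chr5:130475555-130475614, minus strand: ggaccaatgacaggtggggtcttgtctaaa
Atp10d, chr5:72689634-72689693, plus strand: aacttacactagtcaagtcaatttgctact
A_55_P2097578, chr5:11605373-11605432, plus strand: aagccaagaactactttgcaaaagtcgaag
ENSMUST00000055994, chr5:106261375-106261434, plus strand: tgaagtcatcactgaaggaaagagcagaag
Phkg1, A_51_P280890, chr5:130340033-130340092, minus strand: gcccgggCagtctagtgatgcttatttcaa
Phkg1, A_55_P2056483, chr5:130340040-130340099, minus strand: gcccgggAagtctagtgatgcttatttcaa

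Lcn2 itself checked the genotype labels. Its log2 signal was 15.16 ± 1.66 (SD, n = 4) in WT controls and 11.01 ± 0.532 (n = 3) in Lcn2-/- controls, and 14.89 ± 0.959 (n = 5) and 11.56 ± 0.698 (n = 4) with CCl4, with no overlap between genotypes, although its probe was well above background on all 16 arrays. Levels throughout are log2 of the scanner's processed signal after quantile normalization, which gives every array the same distribution of values. The share of spots well above background ran from 51.6% to 60.9%, and r between arrays of a group ran from 0.9708 to 0.9911. The hepatocyte markers Ttr, Apoa1, Cyp2e1 and Serpina1a were well above background on all 16 arrays, and the 4 pancreas markers on 0 (Prss2, Pnlip), 1 (Cpa1) and 3 (Cela2a). Of muscle, Ckm was so on 0, Myh4 on 1 and Acta1 on 5, and of fat Adipoq and Plin1 on 1 and Cfd on 6. All controls lay on slide 1 and all CCl4 arrays but WT CCl4 replicate 1 on slide 2. WT and Lcn2-/- arrays filled different rows of each slide except for that array, which shared the row of the Lcn2-/- controls. Genotype and row therefore cannot be told apart in the controls or among the CCl4 arrays of slide 2.

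An adjusted p of 0.05 in limma served here as the line that sorts the members, not as a test of them. In controls, 25 members lay past it, here named called, 9 higher and 16 lower in Lcn2-/- than in WT. That is 1.56% of the members, beside 0.485% of all probes tested (0.206% higher and 0.279% lower). With CCl4, 30 lay past it, 12 higher and 18 lower, which is 1.88% beside 0.524% (0.263% higher and 0.260% lower). The 19 called in both, 7 higher and 12 lower, are 1.19% of the members beside 0.221% of all probes (0.115% higher and 0.106% lower), 76% of the control list and 63.3% of the CCl4 list. Since these contrasts chose the description, nothing is read from the difference in shares. In all, 36 members of 32 genes were called in either contrast, and the differences of 35 had the same sign in both. The 1563 members not called in either centred near 0, and over all members the median difference was −0.0225 in controls and −0.028 with CCl4, beside −0.0128 and 0.000698 over all probes. The CCl4 count was 16 without Lcn2-/- CCl4 replicate 3 and 19 without Lcn2-/- CCl4 replicate 1. With array weights the counts were 112 in controls, 51 with CCl4 and 37 in both, and with probes well above background on all arrays they were 16 in controls and 12 in both.

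**Figure D1:**
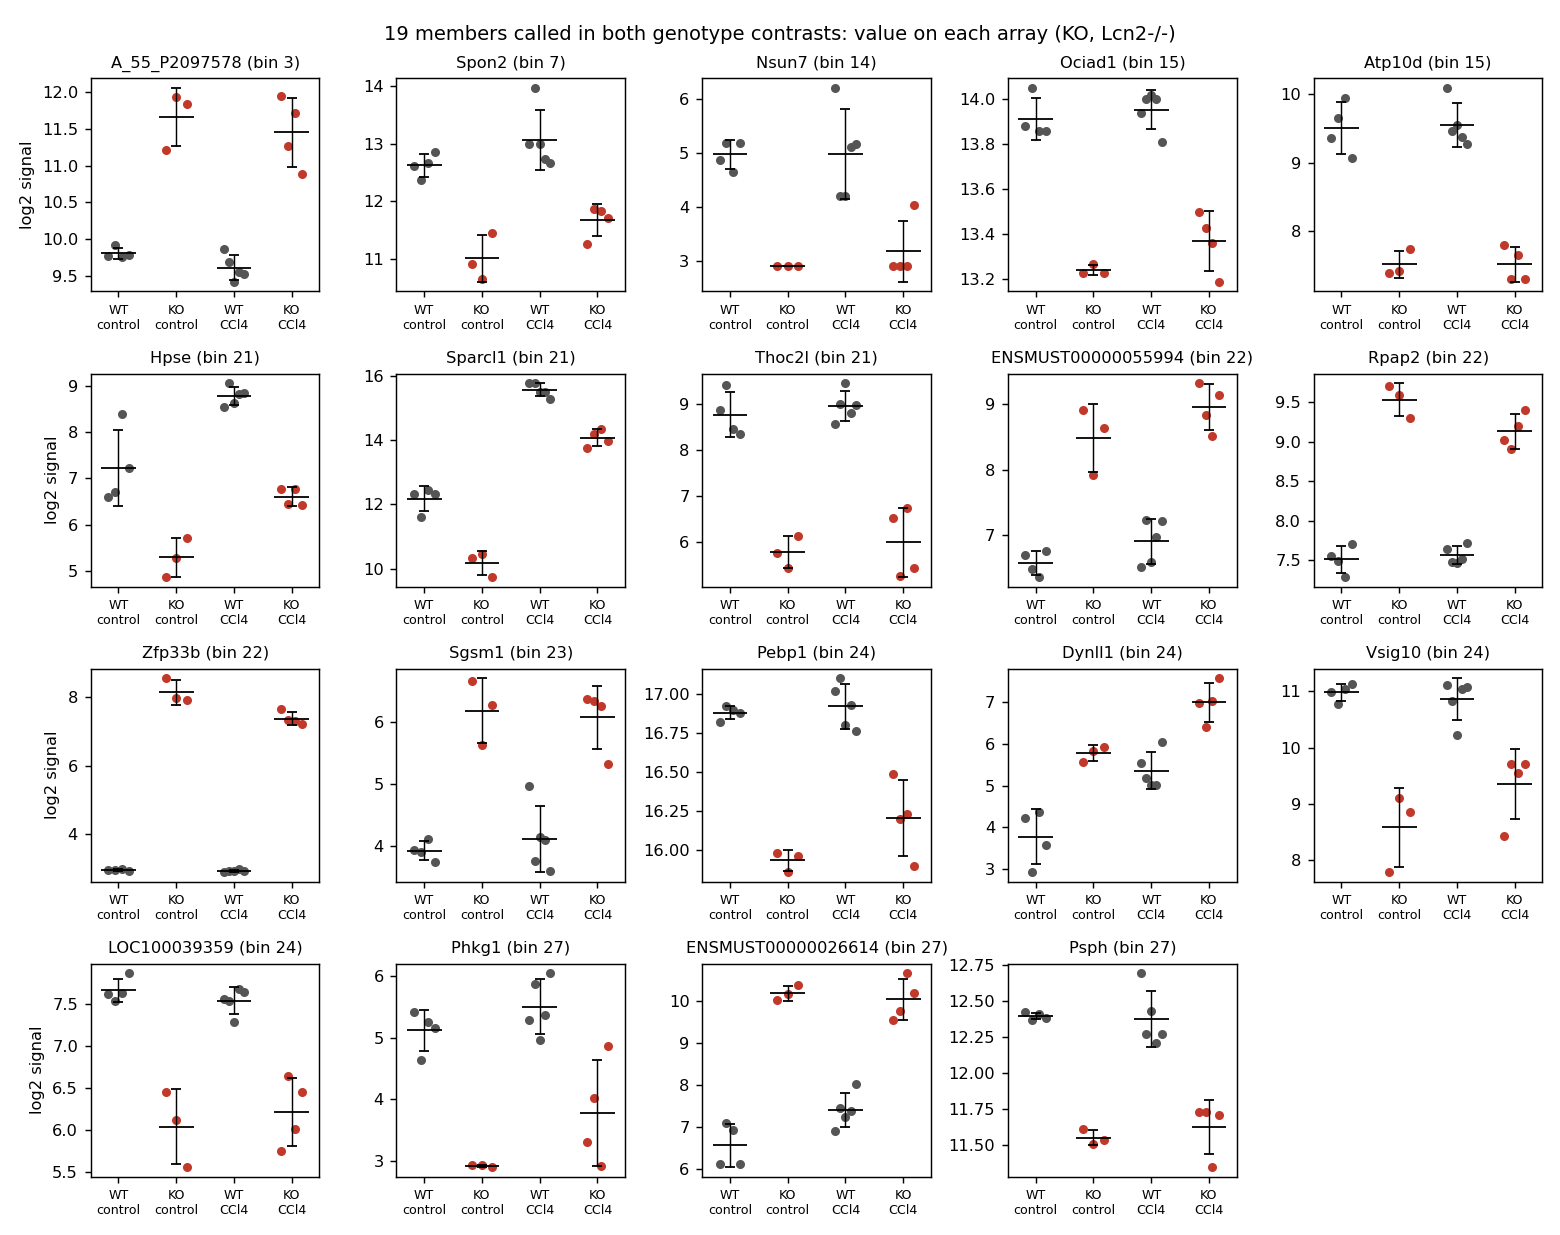
Log2 signal on each array (points) for the 19 members called in both genotype contrasts, in order of 5 Mb bin along chromosome 5, with WT arrays in grey, Lcn2-/- arrays (KO) in red, lines at the group mean and bars of 1 SD. In each panel the WT and Lcn2-/- points do not overlap in controls or with CCl4.

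Among the members higher in Lcn2-/-, Zfp33b, a zinc finger protein, had the largest difference. On the 4 WT control arrays its log2 signal was 2.96, 2.96, 2.99 and 2.92, and on the 5 WT CCl4 arrays 2.89, 2.93, 2.92, 2.98 and 2.92. The 3 Lcn2-/- controls gave 8.55, 7.96 and 7.91, and the 4 Lcn2-/- CCl4 arrays 7.64, 7.32, 7.30 and 7.22. No WT array had this probe well above background, and all 7 Lcn2-/- arrays did. Lcn2-/- signal was therefore at least 17.4-fold higher in controls and at least 15.6-fold higher with CCl4. The bound sets the dim group, on each array, at the lowest signal called well above background or at the probe's own, whichever is higher.

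The probe ENSMUST00000026614, which the array file describes as a beta-glucuronidase precursor, read 6.12, 7.08, 6.92 and 6.10 in WT controls against 10.01, 10.15 and 10.37 in Lcn2-/- controls. With CCl4 the WT arrays read 6.89, 7.44, 7.24, 7.37 and 8.02 and the Lcn2-/- arrays 9.55, 9.76, 10.65 and 10.18. Every Lcn2-/- array stood above every WT array, by 12.3-fold on average in controls and 6.25-fold with CCl4. The probe for Gusb itself, the lysosomal beta-glucuronidase, lies at chr5:130465133-130465192, and its means were 13.23 ± 0.173 and 13.34 ± 0.0782 in WT and Lcn2-/- controls and 14.26 ± 0.136 and 14.04 ± 0.128 with CCl4. The Gusb probe was not called for genotype, with differences of 0.11 and −0.22.

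Sgsm1, a modulator of small G protein signalling, read 3.94, 3.90, 4.12 and 3.74 in WT controls and 6.66, 5.63 and 6.28 in Lcn2-/- controls. With CCl4 it read 4.97, 3.75, 4.14, 4.10 and 3.60 in WT and 6.38, 6.35, 6.27 and 5.32 in Lcn2-/-. WT arrays were never well above background, and Lcn2-/- signal was at least 4.18-fold higher in controls and at least 3.92-fold higher with CCl4. Rpap2, a phosphatase of the RNA polymerase II tail, was measurable in every group. It read 7.56, 7.49, 7.29 and 7.70 in WT controls and 9.71, 9.59 and 9.30 in Lcn2-/- controls, then 7.64, 7.48, 7.46, 7.51 and 7.72 in WT CCl4 and 9.02, 8.91, 9.20 and 9.41 in Lcn2-/- CCl4. The spread within each of its groups was small beside the gap of 4.06-fold in controls and 2.98-fold with CCl4.

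The unnamed probe A_55_P2097578 read 9.77, 9.92, 9.76 and 9.79 in WT controls and 11.21, 11.93 and 11.84 in Lcn2-/- controls. With CCl4 it read 9.87, 9.69, 9.42, 9.55 and 9.53 in WT and 11.95, 11.26, 11.71 and 10.89 in Lcn2-/-. Its fold was 3.61 in controls and 3.58 with CCl4, and it stood alone, far from the other 18, near the start of the chromosome. ENSMUST00000055994 was 1.91 higher in controls and 2.05 higher with CCl4 on the log2 scale, with WT arrays between 6.36 and 7.23 and Lcn2-/- arrays between 7.91 and 9.32. Dynll1, a light chain of the dynein motor, was at 2.93 to 4.38 in WT controls, not well above background, and at 5.56 to 5.94 in Lcn2-/- controls, at least 2.87-fold higher. With CCl4 it was at 5.02 to 6.05 in WT and 6.42 to 7.58 in Lcn2-/-, a difference of 1.64. Of the 16 fits that left out 1 array, 13 kept the Dynll1 call in controls and 10 the call with CCl4. The first was also lost with normexp background correction, and the second with no filter on dim probes.

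Of the 12 members lower in Lcn2-/-, Thoc2l, a gene related to a subunit of the THO complex of mRNA export, is given first. The probe, whose name on the array is D930016D06Rik, read 8.86, 9.41, 8.45 and 8.34 in WT controls and 5.77, 5.45 and 6.14 in Lcn2-/- controls. With CCl4 it read 8.57, 8.99, 9.45, 8.81 and 8.98 in WT and 6.52, 5.27, 6.75 and 5.45 in Lcn2-/-. All 9 WT arrays lay above all 7 Lcn2-/- arrays. In controls only 1 of 3 Lcn2-/- arrays was well above background, so no exact fold is given there. With CCl4, where 3 of 4 were, Lcn2-/- signal was 7.78-fold lower. Thoc2l and Zfp33b lay close together on the chromosome and differed in opposite directions.

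Atp10d, a gene of the phospholipid flippase family that RefSeq lists as a transcribed pseudogene in the C57BL/6 reference, read 9.36, 9.65, 9.95 and 9.07 in WT controls and 7.40, 7.42 and 7.75 in Lcn2-/- controls. With CCl4 it read 10.09, 9.46, 9.55, 9.37 and 9.27 in WT and 7.80, 7.30, 7.66 and 7.31 in Lcn2-/-. The gap was 3.95-fold in controls and 4.09-fold with CCl4. Ociad1, a small endosomal and mitochondrial protein whose probe lies in the same 5 Mb bin, differed by less. It was at 13.86 to 14.05 in WT controls and 13.23 to 13.27 in Lcn2-/- controls, then 13.81 to 14.02 and 13.19 to 13.50 with CCl4, differences of −0.67 and −0.59.

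Sparcl1, a matricellular relative of SPARC, read 12.33, 11.61, 12.46 and 12.33 in WT controls and 10.35, 10.45 and 9.75 in Lcn2-/- controls. With CCl4 it read 15.77, 15.77, 15.49, 15.50 and 15.29 in WT and 13.75, 14.20, 14.36 and 13.98 in Lcn2-/-. Lcn2-/- signal was 4-fold lower in controls and 2.81-fold lower with CCl4, and both genotypes were far higher with CCl4 than without. Hpse, the heparanase that cleaves heparan sulfate chains, read 6.59, 6.70, 8.40 and 7.22 in WT controls and 4.88, 5.28 and 5.72 in Lcn2-/- controls, then 8.55, 9.06, 8.64, 8.82 and 8.85 in WT CCl4 and 6.78, 6.45, 6.78 and 6.43 in Lcn2-/- CCl4. WT control replicate 3 was the highest of the WT controls. Only 1 of 3 Lcn2-/- controls had Hpse well above background, so no exact fold is given in controls. Lcn2-/- signal for Hpse was 4.51-fold lower with CCl4. Spon2, a secreted matrix protein of the spondin family, was at 12.37 to 12.86 in WT controls and 10.65 to 11.45 in Lcn2-/- controls, differences of −1.62 in controls and −1.41 with CCl4. Of the 16 fits without 1 array, 13 kept the Hpse call in controls, and 13 and 14 kept the Spon2 calls in controls and with CCl4. The Hpse call in controls was also lost with normexp background correction and in the authors' table, and the Spon2 calls were lost in both contrasts with the replicate block.

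Psph, the phosphatase of the last step of serine synthesis, was at 12.37 to 12.42 in WT controls and 11.51 to 11.61 in Lcn2-/- controls, with differences of −0.84 and −0.74. Pebp1, an inhibitor of Raf kinase signalling, was at 16.82 to 16.92 and 15.86 to 15.98 in the controls, with differences of −0.95 and −0.72. The Psph call in controls was lost without both control replicates 3, and the Pebp1 call with CCl4 with 75th percentile scaling. Phkg1, the muscle form of the catalytic subunit of phosphorylase kinase, read 5.41, 4.63, 5.26 and 5.16 in WT controls, where 2 of 4 arrays were well above background, and 2.93, 2.93 and 2.90 in Lcn2-/- controls, where 0 of 3 were. It was at least 2.76-fold lower in controls and at least 2.13-fold lower with CCl4, calls that 13 and 5 of the 16 fits without 1 array kept. The replicate block lost the Phkg1 call in both contrasts, leaving out both control replicates 3 lost it in controls, and the slide block, the fit within slides and the fit with no filter on dim probes lost it with CCl4.

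Vsig10, a membrane protein with immunoglobulin domains, was at 10.77 to 11.13 in WT controls and 7.79 to 9.10 in Lcn2-/- controls, then 10.22 to 11.12 and 8.42 to 9.71 with CCl4, differences of −2.40 and −1.51. The Vsig10 call with CCl4 was kept in 5 of the 16 fits without 1 array and lost with the slide block, within slides, with the replicate block, with no filter on dim probes and without both control replicates 3. LOC100039359 differed by −1.62 and −1.33, with WT arrays at 7.29 to 7.87 and Lcn2-/- arrays at 5.56 to 6.65. Nsun7, a member of the NSUN family of RNA methyltransferases, was read by a probe that was not well above background in either genotype in controls, so no fold is given there. With CCl4 it was well above background on 3 of 5 WT arrays and 0 of 4 Lcn2-/- arrays and was at least 1.72-fold lower. In each contrast 5 of the 16 fits kept the Nsun7 call, and in both it was lost with normexp background correction, with the replicate block and without both control replicates 3.

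**Figure D2:**
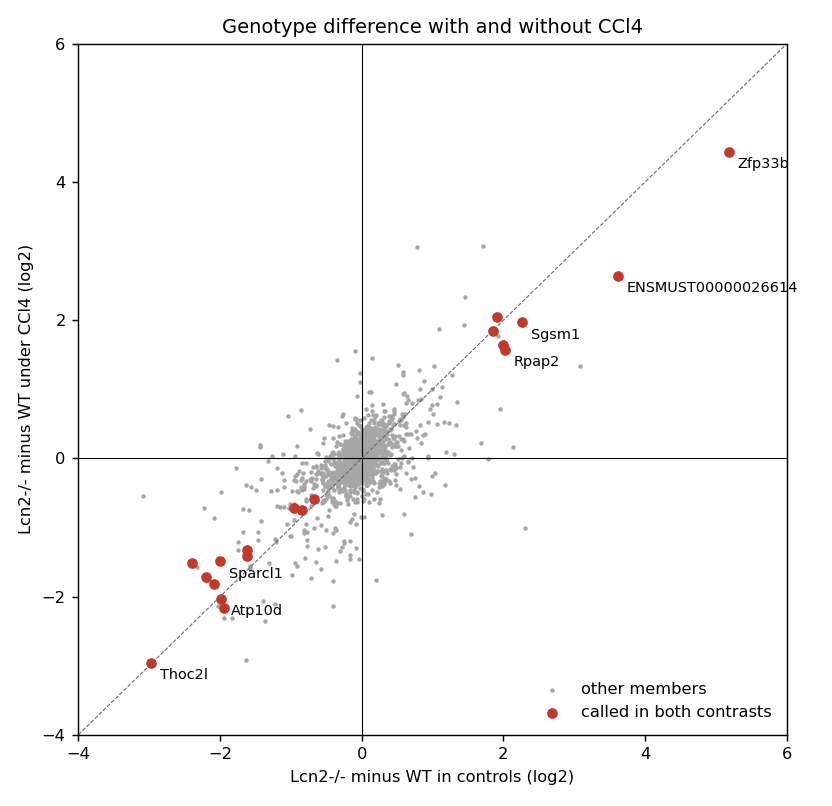
Difference between Lcn2-/- and WT with CCl4 (vertical, log2) against the same difference in controls (horizontal, log2) for the 1599 members, with the 19 called in both contrasts in red and the dashed line where both differences are equal. Measured differences are plotted also where 1 genotype was not well above background and the text gives a bound. Zfp33b, at the upper right, is such a case (at least 17.4-fold and 15.6-fold). Thoc2l lies lowest, at −2.96 with CCl4 and at a measured −2.98 in controls that is not exact.

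All 19 had genotypes that did not overlap in either treatment. Over all members, 236 had genotypes that did not overlap in controls, 97 higher and 139 lower, which is 14.8% beside 9.47% of all probes (4.05% and 5.42%). With CCl4 there were 121, 48 higher and 73 lower, which is 7.57% beside 5.32% (2.26% and 3.06%). In both and in the same direction there were 51 members of 47 gene names, 18 higher and 33 lower, which is 3.19% beside 1.16% (0.403% and 0.760%). The smaller of the 2 differences had a median size of 0.774 over these 51 on the log2 scale, and the smallest was 0.171. Without Lcn2-/- control replicate 3 the count in controls was 404, and without Lcn2-/- CCl4 replicate 4 or 2 the count with CCl4 was 229 or 191. Without both WT control replicate 3 and Lcn2-/- control replicate 3, genotypes did not overlap for 496 members in controls and 78 in both. In that fit 20 members were called in controls, 38 with CCl4 and 17 in both. Within slides, which drops WT CCl4 replicate 1, 27 members were called in controls, 29 with CCl4 and 18 in both. Genotype and row cannot be told apart in either treatment of the fit within slides.

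Called in controls only were 6 members, and with CCl4 only 11. The control-only group held 2 of the 3 probes of Nupr1l, a stress protein of the nuclear protein 1 family, at −1.67 and −1.49 in controls and −0.73 and −0.46 with CCl4. The third Nupr1l probe, not called, was at −0.52 and −0.09. The control-only group also held Adam1a, a gene of the ADAM family, at 3.30 ± 0.292 in WT controls and 5.44 ± 0.494 in Lcn2-/- controls. That was at least 2.68-fold higher, though only 1 of the 3 Lcn2-/- controls was well above background. With CCl4 the Adam1a arrays overlapped, at 4.31 to 5.16 in WT and 4.19 to 5.42 in Lcn2-/-. Ssh1, a cofilin phosphatase, was 0.97 higher in controls and 0.71 higher with CCl4, with no overlap in either, and second probes of Nsun7 and Psph completed the group.

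In the group called with CCl4 only, 4930458D05Rik read 5.57, 6.10, 5.82 and 6.77 in Lcn2-/- CCl4 and 2.94, 2.90, 3.38, 2.88 and 2.89 in WT CCl4. None of the other 12 arrays had it well above background, and Lcn2-/- signal exceeded WT by at least 6.09-fold. 1500011B03Rik read 8.28, 8.44, 8.69 and 9.19 in Lcn2-/- CCl4 and 11.26, 10.49, 10.35, 10.55 and 11.24 in WT CCl4, 4.37-fold lower, while its controls overlapped at 11.13 to 11.64 and 10.44 to 11.67. A second probe of 1500011B03Rik differed by −0.17 and −0.54 and was not called. Tlr6, a receptor for bacterial lipopeptides, differed by −1.57 in controls and −1.58 with CCl4. The probe ENSMUST00000112482, described in the array file as DNA polymerase epsilon, differed by −1.31 and −1.51.

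Asphd2, a membrane protein with a hydroxylase domain, was at 6.66 to 7.24 in WT CCl4 and 4.44 to 5.95 in Lcn2-/- CCl4, and no control array had it well above background. The other 6 of the group were Shisa3, Lrrc66, Zfp951, a second Rpap2 probe, Fbxo21 and Anapc5, with differences with CCl4 from −1.49 for Zfp951 to 1.46 for Shisa3. At the threshold itself, the members just inside were the dim Nsun7 probe and, at −0.96, the second Psph probe in controls, and the dim Nsun7 probe and, at −1.51, Vsig10 with CCl4. Just outside in controls were Asb10, a subunit of ubiquitin ligases, at least 3.26-fold lower, and XM_001473338, at 0.83, and just outside with CCl4 were the second Nsun7 probe and Napepld, an enzyme of N-acylethanolamine synthesis, at −1.33 and −0.47.

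Some genes were read by more than 1 member. Of 286 genes with at least 2 member probes, 201 had all differences of the same sign in controls and 85 did not, and with CCl4 the counts were 180 and 106. In controls, 10 of the genes had a called probe, and for 8 of them some other probe was not called. With CCl4 this held for 11 of 11. For Thoc2l the called probe differed by −2.96 with CCl4, and its measured −2.98 in controls is not exact. The other, whose name on the array is BC005561, differed by 0.27 and −0.00. That second probe was at 10.39 ± 0.276 and 10.67 ± 0.159 in WT and Lcn2-/- controls. For Sgsm1 the called probe was at least 4.18-fold higher in controls and the other 2 were 0.54 and 0.05 higher.

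**Figure D3:**
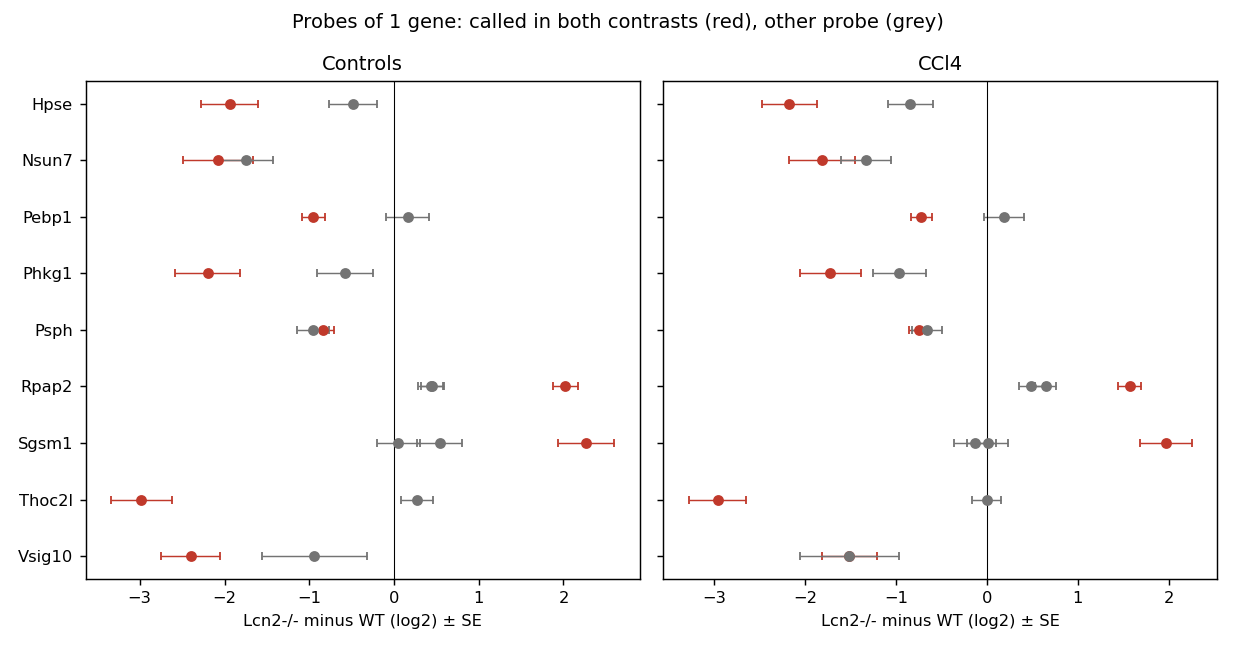
Difference between Lcn2-/- and WT (horizontal, log2, bars of 1 SE from limma) in controls and with CCl4 for the 9 genes that hold a member called in both contrasts (red) and at least 1 other member probe (grey). In controls the grey points of Thoc2l and Pebp1 lie at 0.27 and 0.16, those of Sgsm1 at 0.54 and 0.05, those of Rpap2 at 0.45 and 0.44 and that of Psph at −0.96. Probes with a group not well above background are plotted at their measured differences, which are not exact there.

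Rpap2 was read by 3 probes, all higher in Lcn2-/-, by 2.02, 0.45 and 0.44 in controls and 1.57, 0.65 and 0.49 with CCl4. Hpse had a second probe that differed by −0.48 and −0.84. The called one differed by −2.17 with CCl4, and its measured −1.94 in controls is not exact. The 2 Pebp1 probes pointed in opposite directions, at −0.95 and 0.16 in controls and −0.72 and 0.19 with CCl4. The second probe of Psph differed by −0.96 and −0.66, where the first differed by −0.84 and −0.74. The second probe of Nsun7 differed by −1.75 and −1.33, and the first, not well above background in controls, gives no exact value to set beside it. The other Vsig10 probe, which no Lcn2-/- array had well above background, was not called, and its genotypes overlapped in controls and with CCl4.

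The 2 Phkg1 probes whose sequences are shown above cover 53 bases in common, shifted by 7, and differ there at 1 base, C8A, counted from the 5′ end of A_51_P280890. The probe with C, given above, was at least 2.76-fold lower in Lcn2-/- controls and at least 2.13-fold lower with CCl4. The probe with A read 5.37, 5.77, 6.04 and 5.59 in WT controls and 5.10, 4.92 and 5.31 in Lcn2-/- controls, of which 0 of 3 were well above background, so that it was at least 1.5-fold lower. With CCl4 it read 5.75, 6.33, 5.47, 6.37 and 6.71 in WT and 5.18, 5.43, 4.31 and 5.77 in Lcn2-/-, a difference of −0.96, and it was not called in either contrast. Whether the mice carry either base was not analysed here.

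Probes called for genotype in either contrast had a median GC content of 38.3%, and the others 41.7%. Their median log2 level was 7.84, and that of the others 10. Both are descriptions of the chosen members.

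Along the chromosome the 19 fell in 9 of the 31 bins of 5 Mb, from 11.6 to 130 Mb. Of the 19, 11 lay between 100 and 120 Mb, among 288 members, with 3 in the bin from 100 Mb, 3 in the bin from 105 Mb, 1 in the bin from 110 Mb and 4 in the bin from 115 Mb. Another 3, Psph, Phkg1 and ENSMUST00000026614, lay in the bin from 130 Mb, and Nsun7, Atp10d and Ociad1 lay between 65 and 75 Mb. There were 0 among the 169 members from 75 to 100 Mb and 0 among the 372 members beyond 135 Mb, edges that were chosen after the values were seen. Only Spon2 and the unnamed probe lay below 60 Mb, among 445 members. Of the 9 bins, those from 115 and 130 Mb held members of both directions. The bin from 115 Mb held Dynll1 higher and Vsig10, Pebp1 and LOC100039359 lower. The other 7 held a single direction, but those from 10, 30, 65 and 110 Mb held only 1 such member each. In the bin from 115 Mb the median difference of all members was −0.135 in controls and −0.123 with CCl4.

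**Figure D4:**
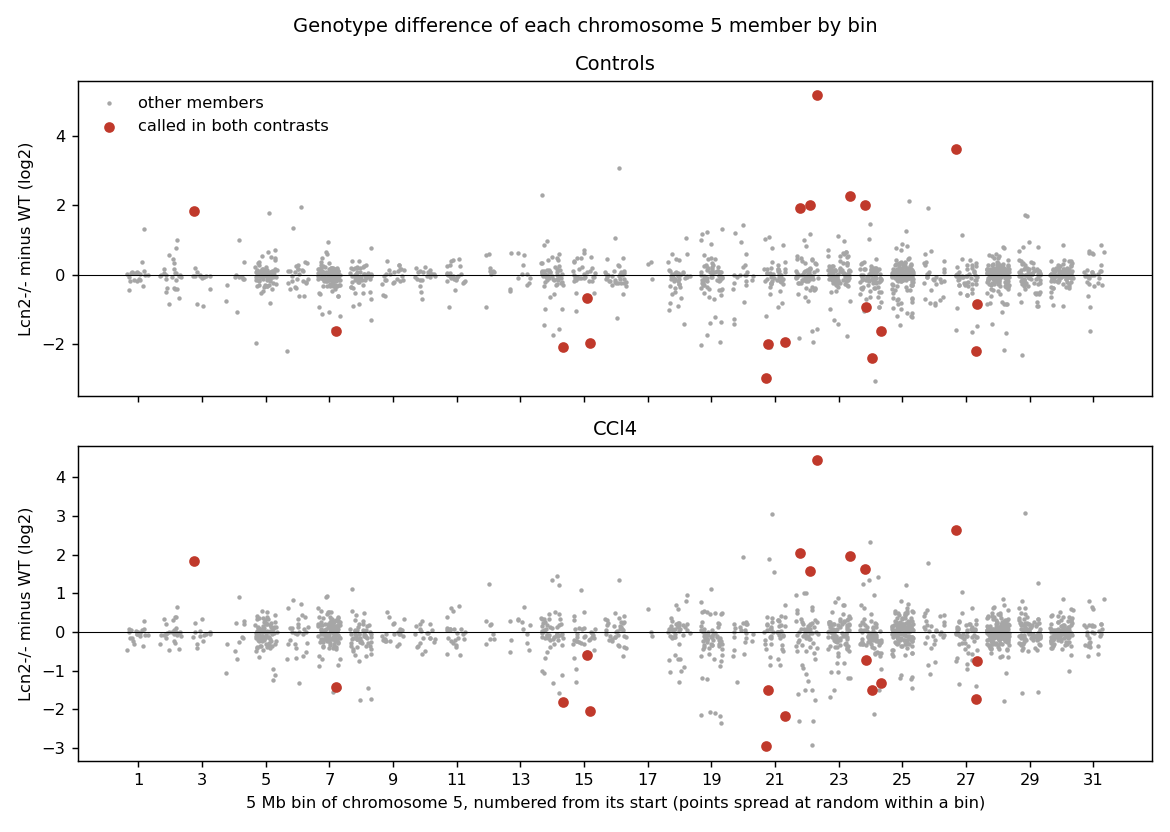
Difference between Lcn2-/- and WT (vertical, log2) in controls and with CCl4 for the 1599 members by 5 Mb bin of chromosome 5 (horizontal, bin number, with points spread at random within a bin), the 19 called in both in red. Red points gather in bins 21 to 24 and 27, and none lies in bins 16 to 20 or 28 to 31. They lie all below 0 in bin 21, all above 0 in bin 22 and on both sides in bins 24 and 27. The only 1 in bin 23 lies above 0.

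The members that did not overlap between genotypes in both treatments include the 19, so their place along the chromosome is no separate result. They made up 8.16%, 8.82%, 5.62% and 7.32% of the members in the 4 bins from 100 to 120 Mb and 12.7% in the bin from 130 Mb, but 2.88% in the bin from 120 Mb and 1.9% in the bin from 135 Mb. Bins with few members and none called in both also held some, with 8.33% of the 12 members from 60 Mb, 4.76% of the 21 in the first bin and 4% of the 25 from 50 Mb. Over the whole array, with the same probe series left out, 9 of 29 chromosome 5 bins with at least 10 probes (31%) held a probe called in both contrasts. On chromosome 2, where Lcn2 lies, 10 of 36 such bins (27.8%) did, and on all other chromosomes together 11 of 430 (2.56%). Chromosomes 2 and 5 each held 19 such probes, and chromosome 17, which came next, held 4.

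The response to CCl4 was not used to choose the members and could be tested. Treatment and slide cannot be told apart in Lcn2-/-, whose controls lay on slide 1 and CCl4 arrays on slide 2. In WT only WT CCl4 replicate 1 tells them apart. In WT, 211 members passed an adjusted p of 0.05 in limma, 125 higher and 86 lower with CCl4, and in Lcn2-/- 170 passed, 108 higher and 62 lower. These are 13.2% and 10.6% of the members beside 15.0% and 11.1% of all probes (7.34% higher and 7.65% lower in WT, 6.16% and 4.93% in Lcn2-/-), shares that lie near those of the array as a whole. In both genotypes and the same direction, 114 members responded, 84 higher and 30 lower, which is 7.13% beside 7.82% of all probes (4.58% and 3.23%). The median response was 0.00657 in WT and 0.019 in Lcn2-/-, beside −0.0333 and −0.0203 over all probes. Scaling each array to its 75th percentile turned the balance of calls, with 99 higher and 152 lower in WT and 73 and 97 in Lcn2-/-, while the median of all probes moved to −0.17 and −0.15. With slide as a block, so that WT CCl4 replicate 1 alone ties the treatments on slide 1, the calls fell to 60 and 20. Of these, 48 were higher and 12 lower in WT, and 16 higher and 4 lower in Lcn2-/-. The WT count was 137 without WT control replicate 1 and 139 without WT control replicate 2, and the Lcn2-/- count was 91 without Lcn2-/- control replicate 2 and 96 without Lcn2-/- control replicate 1. Without both control replicates 3 it was 292 in WT and 194 in Lcn2-/-.

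The difference between the 2 responses, the interaction of genotype and CCl4, was called in limma for 0 of 1599 members after adjustment. At an unadjusted p of 0.05 there were 57 members (3.56%, beside 3.29% of all probes), and over the whole array 11 probes (0.0333%) passed the adjusted threshold, 4 above 0 (0.0121%) and 7 below (0.0212%). With array weights 1 member passed, and without Lcn2-/- control replicate 2 there were 2. The lack of adjusted calls does not show that the responses were equal.

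Rises and falls that both genotypes shared were chosen by the smaller of the 2 measured responses, and their order is not exact where a treatment was not well above background. Sparcl1, whose signals are given above, rose by 3.38 (SE 0.201, adjusted p = 4.82e-07) in WT and 3.89 (SE 0.229, adjusted p = 4.17e-07) in Lcn2-/- in limma. Cyp3a44, a CYP3A oxidase, rose by 3.61 and 2.98, from 9.81 ± 0.843 (n = 4) to 13.43 ± 0.896 (n = 5) in WT and from 9.44 ± 0.92 (n = 3) to 12.41 ± 0.887 (n = 4) in Lcn2-/-. Afp, the fetal albumin, rose by 3.70 and 2.76. WT CCl4 arrays read 15.85, 14.09, 12.10, 12.66 and 12.59 for Afp, of which replicate 1 was the highest, and all 9 CCl4 arrays stood above all 7 controls. In Lcn2-/-, the Afp call was kept in 12 of the 16 fits that left out 1 array, with an adjusted p of up to 0.102.

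Among cell surface and matrix genes, Sdk1, a synaptic adhesion protein, had no control array well above background and rose at least 4.77-fold in WT and 7.73-fold in Lcn2-/-. Lgi2, a secreted leucine-rich protein, rose by 3.14 and 2.77, and Cpz, a carboxypeptidase of the extracellular matrix, by 2.80 and 2.75. Ereg, a ligand of the EGF receptor, rose at least 4.46-fold in Lcn2-/-, whose controls were not well above background. It was called in WT too, where 1 of 4 controls was well above background, so no exact rise is given. The Ereg controls were uneven, with 2.89, 2.89, 6.13 and 3.47 in WT, and the Lcn2-/- call was kept in 12 of the 16 fits. Lat2, an adaptor of immune receptor signalling, rose by 2.30 in WT, and Csn3, a milk casein, by 2.44 in WT. Both were called in Lcn2-/- too, where 1 of 3 controls was well above background, so no exact rise is given there. Myo18b, an unconventional myosin, rose at least 9.51-fold and 5.04-fold.

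Among the shared falls, CJ203250 fell from 6.72 ± 0.236 and 7.60 ± 0.367 in WT and Lcn2-/- controls to values that no CCl4 array had well above background, at least 9.98-fold and 7.21-fold lower. Pramel34, of the PRAME-like family, fell at least 9.37-fold and 11.3-fold. Both lay in the bin from 90 Mb, where members of the PRAME-like family share near-identical sequence, so signal may come from several copies. Gm2264 fell by 2.57 and 2.90, from a high level of 15.83 ± 0.424 and 15.96 ± 0.686. Gm5107, which no WT CCl4 array had well above background, fell at least 8.11-fold in WT. Its fall was called in Lcn2-/- too, where 1 of 4 CCl4 arrays was well above background, so no exact fall is given there.

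Cad, the enzyme of the first steps of pyrimidine synthesis, fell by 2.32 and 1.85, and Crybb3, a lens crystallin, fell by 2.09 and 1.83. ENSMUST00000078701, Gm2230, B230303O12Rik and Gm8350 made up the 10, with responses of −2.85 to −1.48 in WT and −2.03 to −1.35 in Lcn2-/-. The 20 rises and falls were selected by their size. Sdk1, Ereg, Myo18b, CJ203250, Pramel34 and Gm5107 met the filter on dim probes through a single treatment. Nothing is therefore read from how many calls held. In Lcn2-/-, 12 of the 20 were kept in each of the 16 fits without 1 array, and slide as a block kept 13 in WT and 7 in Lcn2-/-.

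**Figure D5:**
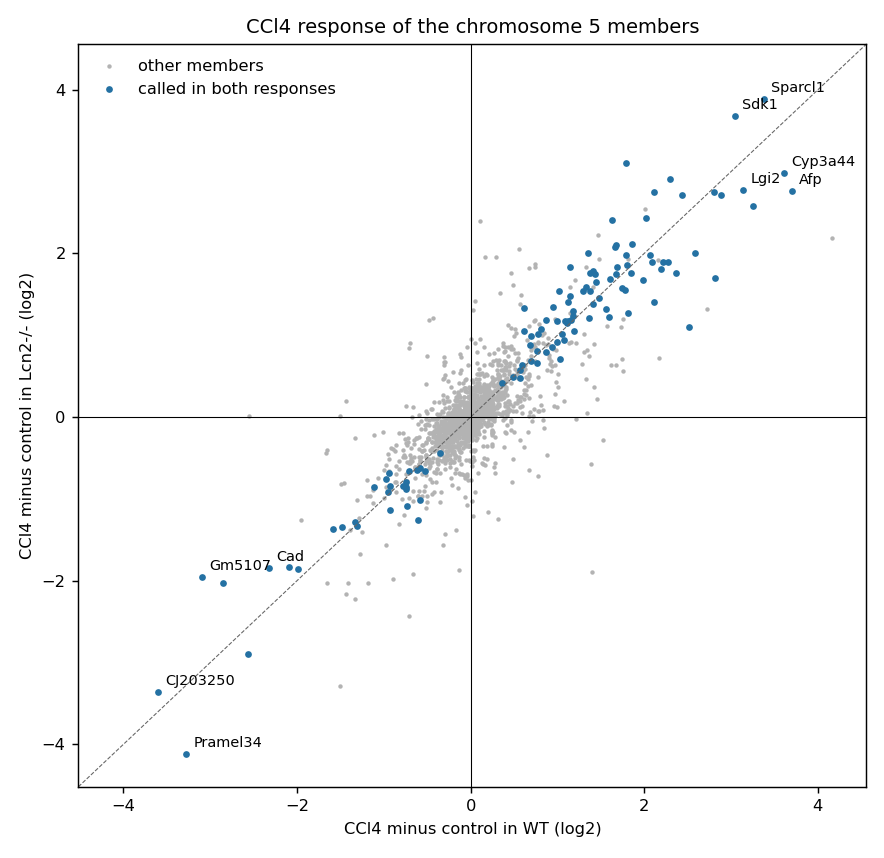
CCl4 response in Lcn2-/- (vertical, log2) against the response in WT (horizontal, log2) for the 1599 members, with the 114 called in both genotypes in blue and the dashed line where both responses are equal. The blue points run along the line from CJ203250 and Pramel34, which fell, to Sparcl1, Sdk1, Cyp3a44 and Afp, which rose.

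Of the 19 members called in both genotype contrasts, Sparcl1, Hpse and Dynll1 were called in both responses. Hpse rose by 1.56 (SE 0.3, adjusted p = 0.00282) in WT in limma. It was called in Lcn2-/- too (limma, adjusted p = 0.0228), where most controls were not well above background, so no exact rise is given. Dynll1 rose at least 2.15-fold in WT (adjusted p = 0.00294) and by 1.22 in Lcn2-/- (adjusted p = 0.0377) in limma. Zfp33b was 0.77 lower with CCl4 than without in Lcn2-/-, and in WT no array had it well above background. These responses share arrays with the genotype differences that chose the genes. Of the 36 called in either genotype contrast, 7 were called for the WT response and 9 for the Lcn2-/- response, beside 15.0% and 11.1% of all probes.

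Gene groups that chromosome 5 carries were described with 1 probe per gene, the brightest. With that probe, Sparcl1 was the only listed gene called for genotype, while Hpse and Anapc5 were called through another, dimmer probe. The counts below stand beside 7.34% of all probes that rose and 7.65% that fell in WT, and 6.16% and 4.93% in Lcn2-/-. Among 10 matrix and fibrosis genes that were members, 5 rose in WT, 4 rose in Lcn2-/- and 0 fell, with median responses of 0.559 and 0.545. Eln, the elastin gene, rose by 1.63 and 2.41, and its Lcn2-/- controls at 5.70 ± 0.292 lay below the WT controls at 6.79 ± 0.134. Pcolce, an enhancer of procollagen cleavage, rose by 1.09 and 1.17, and Spp1, the cytokine osteopontin, by 1.68 and 2.10. The Hpse probe used here, the brighter one, rose by 0.92 in WT.

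Pdgfra, the receptor through which PDGF acts on mesenchymal cells, rose from 9.48 ± 0.165 to 11.09 ± 0.247 in WT (adjusted p = 2.71e-05) and from 9.17 ± 0.249 to 10.86 ± 0.296 in Lcn2-/- (adjusted p = 7.69e-05) in limma. It was the only one of 9 receptor tyrosine kinases and growth factors to rise, and Flt1, a VEGF receptor of endothelium, fell by 0.43 in Lcn2-/-. Of the endothelial markers, Lyve1 rose by 1.52 and 1.92, Stab2 fell by 0.43 in WT and Pecam1 was not called, and their part in the Flt1 value was not tested. The stellate cell markers Col1a1, Des and Lrat, which lie on other chromosomes, also rose in both genotypes, Col1a1 by 3.49 and 4.21, while Acta2 was not called. Their part in the rise of the chromosome 5 matrix genes was not tested.

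Of 9 members among the CYP3A enzymes and Por, the reductase that serves them, 4 rose in each genotype and 0 fell. Cyp3a16 rose by 1.00 and 1.17 and Cyp3a41b by 1.18 and 1.24, besides Cyp3a44. Por rose by 0.83 in WT, a call that 4 of 16 fits without 1 array kept, and Cyp3a11 by 0.62 in Lcn2-/-, kept in 12. Slide as a block kept none of the 4 rises in Lcn2-/- and lost that of Cyp3a16 in WT. The Por call was also lost with 75th percentile scaling, with no filter on dim probes, within slides and with the replicate block. The Cyp3a11 call was also lost with 75th percentile scaling and without both control replicates 3. CYP3A genes are close copies of each other, so their probes may read more than 1 of them. Of 12 UGT2 and SULT1 conjugation enzymes, which attach glucuronic acid or sulfate, 5 fell and 1 rose in WT, and 1 fell in Lcn2-/-. With slide as a block none of the 5 falls in WT was kept, and Ugt2b5 and Ugt2b37 were also lost with the replicate block and without WT control replicate 1. The rise, of Sult1d1, was kept in 11 of the 16 fits without 1 array and lost with 75th percentile scaling and within slides. Ugt2b1 fell by 1.46 in WT (adjusted p = 0.00352) and differed by −0.81 in Lcn2-/- (adjusted p = 0.136) in limma, and Sult1b1 fell in both, by 1.11 and 0.85. The Sult1b1 call in Lcn2-/- was lost with 75th percentile scaling, with slide as a block and without both control replicates 3.

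Of 18 hepatocyte metabolic enzymes, 5 rose in WT, and 2 rose and 1 fell in Lcn2-/-. The fall was of Mmab, kept in 2 of the 16 fits without 1 array and at −0.07 with slide as a block, and lost in the authors' table and with the replicate block. Among the rises in WT, Asl was kept in 4 of these fits and Sdsl in 9, and both were lost with 75th percentile scaling and with slide as a block. Hsd17b13, a lipid droplet retinol dehydrogenase, rose by 0.87 and 0.79, Gusb by 1.03 and 0.71, and Sds, the dehydratase that degrades serine, by 1.42 in WT. Of 6 ABC transporters, Abcb1a, a drug efflux pump, rose by 1.37 and 1.54. In the albumin family Afp rose, and Alb, Gc and Afm were not called, with responses of −0.10 to 0.09 over both genotypes. Of 2 EGF receptor ligands, Ereg rose and Btc did not pass.

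Of 9 CXC chemokines 0 passed in either response, and Cxcl9 and Cxcl10, both induced by interferon, had SDs of 2.73 and 2.31 among WT controls. Of 6 guanylate-binding proteins, which act in cell-autonomous immunity, 0 passed, with medians of 0.246 in WT and −0.778 in Lcn2-/-. At an unadjusted p of 0.05 the whole member set held 414 and 408 probes for the 2 responses, 25.9% and 25.5% of the members beside 29.3% and 25.8% of all probes. Of 12 purinergic and other innate immune genes, Tmem119 rose by 2.27 and 1.89 and Cd36, a scavenger receptor, by 1.37 and 1.76, while P2rx4, an ATP-gated channel, fell by 0.47 in Lcn2-/-. The Cd36 calls were kept in 8 and 11 of the 16 fits without 1 array. The P2rx4 call was kept in 6, and it was lost with 75th percentile scaling, in the authors' table, with the slide or replicate block and without both control replicates 3. Of the macrophage markers, Cd68 rose by 2.12 and 1.84, Clec4f fell by 1.03 in WT, and Adgre1 and Marco were not called. The neutrophil marker S100a8 rose by 2.31 and the lymphocyte marker Cd3e fell by 0.88, each in WT, while Ly6g and Mpo were not called, and their part in these changes was not tested. Of 16 cell cycle and DNA repair genes, 0 passed in WT and Ccdc18 rose in Lcn2-/-, at least 2.28-fold. The Ccdc18 call was lost with 75th percentile scaling, with normexp background correction, in the authors' table and with slide as a block.

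Over the lists, 17 of 26 calls in WT and 11 of 21 in Lcn2-/- held in each of the 16 fits without 1 array. Of those named above, Spp1 was kept in 14 in each genotype, Hpse in 12 in WT, Flt1 and Sult1b1 in 13 in Lcn2-/-, and Ccdc18 in 14. Slide as a block kept 12 and 4, among them Sparcl1, Eln, Pdgfra and Afp in both genotypes.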

How the data were processed

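Liver RNA of 16 samples was hybridised to Agilent single-colour arrays. The deposited scanner files hold processed intensity, which the scanner software had background-subtracted and detrended, raw mean and background intensity, and 0 or 1 flags of other kinds (well above background, saturated, outlier). The authors' value table, deposited with the series, holds log2 values after quantile normalization in limma, whose version is not given in the sources used here. It served as an alternative.

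Spots of a probe were averaged without control and outlier spots, 121 of 55681 probes had no spot left, and log2 processed intensity was quantile normalized over 16 arrays. A probe was tested where 3 or more arrays had it well above background, 33022 in all. One limma fit (limma 3.58.1, R 4.3.3) over the 4 groups gave both genotype differences, both CCl4 responses and their interaction, with Benjamini-Hochberg adjustment over all tested probes, a threshold of 0.05 and SEs from the moderated fit. The script was tested on simulated data. The p-values measure the spread between these samples, which may be technical in part. The number of arrays limits the precision. Columns of other samples numbered 0.

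The members and gene lists were chosen with earlier results of these data known. Genes named were the members called in both genotype contrasts, those called in 1 contrast, the 10 largest rises and 10 largest falls shared by both genotypes, the members nearest the threshold, and the listed genes. Symbols were updated from RefSeq (assembly GRCm38.p6), which named 1303 members, and positions are those of mm9 in the files. Exons and untranslated regions were not analysed here. One gene of the lists is left out of the text. A match of probes to coding sequence was planned and not done, since no protein table was used.

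Deviations of same-numbered controls, which shared a column of slide 1, correlated at 0.201, 0.375 and 0.516. For same-numbered CCl4 arrays r was −0.00872, 0.269, 0.00726 and −0.248. WT CCl4 replicates 2, 3, 4 and 5 shared columns of slide 2 with Lcn2-/- CCl4 replicates 1, 2, 3 and 4. For these pairs r was 0.166, 0.259, 0.173 and 0.643. No fit used the column as a block. The alternatives were 75th percentile scaling, normexp background correction with an offset of 50, the authors' table, other filters on dim probes, leaving out array rows 1 to 20, slide and replicate blocks, fits within slides, array weights, other bin widths and each array left out. Leaving out both control replicates 3 was added after seeing the data. For the count called in both contrasts, so were the weights, blocks, fits within slides and single arrays left out. For the counts of groups that do not overlap, so were the fits within slides and single arrays left out. For the bins, all but the bin widths were added then.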

Additional observations from a re-analysis of the deposited data

Results flagged for a closer look

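Among 144 groups of 4 or 5 arrays over 48 probes, 10 had an array that stood apart from the others by Dixon's criterion, of which chance gives about 1 in 20. In Lcn2-/- CCl4, replicate 4 was lowest for Sgsm1 at 5.32, with the next at 6.27, and highest for the dim Nsun7 probe at 4.03, with the next at 2.89. Replicate 1 of that group was lowest for Vsig10 at 8.42 against 9.55 and for Cpz at 10.25 against 10.95, and replicate 3 was lowest for Psph at 11.35 against 11.71. Among WT controls, replicate 2 was lowest for Sparcl1 at 11.61 against 12.33 and highest for Ociad1 at 14.05 against 13.88, and replicate 3 was lowest for 1500011B03Rik at 11.13 against 11.58. In WT CCl4, replicate 2 was highest for Spon2 at 13.97 against 13.00, and replicate 3 was highest for 4930458D05Rik at 3.38 against 2.94. All values are log2 signals.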

How the results depend on the processing

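Of 2558 values of named genes under the alternatives, 2342 kept direction and side of the threshold, 191 lost the call, 24 gained it and 1 reversed: the Adam1a genotype difference under CCl4 was −0.01 without Lcn2-/- CCl4 replicate 3 (0.17 with all arrays, and −0.01 to 0.40 over the fits without 1 array). Of the 19 members called in both genotype contrasts, 13 kept both calls in each of the 16 fits without 1 array. The 19 were selected by these calls on nearly the same arrays. Zfp33b, Sgsm1, Nsun7 and Phkg1 met the filter on dim probes through a single genotype. Nothing is therefore read from how many calls held. With probes well above background on all arrays, 16 members were called in controls and 12 in both contrasts, and 42 of 78 named calls remained, since dim probes were not tested. With slide as a block the responses were called for 60 members in WT and 20 in Lcn2-/-. With array weights 112 were called for genotype in controls, 51 under CCl4 and 37 in both, in 14 bins, and 367 and 419 for the responses and 1 for the interaction. Without both control replicates 3, genotypes did not overlap in controls for 496 members and in both treatments for 78. The cause of these shifts was not tested. Leaving out 1 array gave 17 to 28 calls in controls, 16 to 33 under CCl4, 13 to 20 in both, 7 to 11 bins, 137 to 272 for WT, 91 to 181 for Lcn2-/-, 0 to 2 for the interaction, 64 to 77 named calls, and 236 to 404, 121 to 229 and 53 to 73 members that did not overlap in controls, under CCl4 and in both. With the replicate block the counts were 19, 23, 192, 167 and 0 and 15 in both, and no count moved by over 1.5 times. That block joins CCl4 arrays of different slide columns, so it cannot show what pairing by column would do. Bins with a member called in both numbered 12 at 2 Mb and 7 at 10 Mb. Counts of groups that do not overlap were not run for the blocks and weights, which leave the values as they are. Signal over background limits the dim probes, for which folds are bounds.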
